A study of Mus musculus with 6 samples.

Results

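The insulin-like growth factor (IGF) genes examined here were the ligands Igf1 and Igf2, the receptor Igf1r and the binding proteins Igfbp1, Igfbp2, Igfbp3 and Igfbp6. They were chosen by symbol from the platform annotation. That gave 8 probes for 7 genes, because Igf1 has probes 16I and 22H, of 221 probes used that name 202 genes. Signals came from the soleus, a calf muscle rich in slow fibres that serves posture, in 6 mice of the 129/SV strain that lack tenascin-C, a glycoprotein of the extracellular matrix. All 6 animals carried the null genotype and had been reloaded for 1 day, which means that weight was put back on a muscle that had been spared it. Each was measured on 1 low-density array with a radioactive label. The arrays form 1 group, named here by replicate numbers 1 to 6 in the order of the sample records. The titles number arrays 1 to 4 from 179 to 182 and arrays 5 and 6 as 198 and 199, and what these numbers stand for is not given. No comparison with another genotype, time or load could be made. The labels read here give no age or sex and do not say which part of the gene is missing.

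IGF1 and IGF2 are small secreted peptides related to insulin. Both act through the receptor encoded by Igf1r, a tyrosine kinase that signals through phosphatidylinositol 3-kinase and Akt and, in muscle, promotes protein synthesis and growth of fibres. Muscle makes its own IGF1, and loading is a known stimulus, while IGF2 is known for its part in the differentiation of myoblasts. The IGF binding proteins hold the ligands outside the cell, prolong their life and limit or direct their access to the receptor. IGFBP6 binds IGF2 in preference to IGF1, IGFBP3 is the main carrier in blood, and IGFBP1 is made mainly by the liver.

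The bases before the annotated starts of 4 members are shown, because Igf1, Igf2 and Igfbp6 were the members that lay above the limit set below on both arrays 5 and 6, and Igfbp1 did so on other arrays. They are from RefSeq (GRCm38.p6), 250 bases each, read 5′ to 3′ on the gene's strand, and all 7 genes had at least 1 such window. Capitals mark the E-box CANNTG, the motif of basic helix-loop-helix factors such as the myogenic regulators.
Igf1 (chr10:87860861-87861110, plus strand): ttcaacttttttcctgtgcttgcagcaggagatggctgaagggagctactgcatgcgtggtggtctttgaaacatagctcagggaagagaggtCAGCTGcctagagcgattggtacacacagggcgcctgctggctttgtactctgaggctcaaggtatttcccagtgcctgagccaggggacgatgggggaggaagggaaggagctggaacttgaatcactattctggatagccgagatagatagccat
Igf2 (chr7:142666817-142667066, minus strand): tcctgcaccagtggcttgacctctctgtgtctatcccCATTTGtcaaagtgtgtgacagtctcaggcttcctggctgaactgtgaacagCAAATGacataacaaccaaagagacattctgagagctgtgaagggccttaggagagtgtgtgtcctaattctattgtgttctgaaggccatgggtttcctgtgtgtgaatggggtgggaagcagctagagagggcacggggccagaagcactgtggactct
Igfbp6 (chr15:102143936-102144185, plus strand): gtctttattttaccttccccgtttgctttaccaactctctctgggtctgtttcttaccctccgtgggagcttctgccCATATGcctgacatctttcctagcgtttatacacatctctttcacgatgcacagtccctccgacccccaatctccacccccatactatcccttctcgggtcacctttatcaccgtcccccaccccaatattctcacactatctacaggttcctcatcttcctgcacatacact
Igfbp1 (chr11:7197537-7197786, plus strand): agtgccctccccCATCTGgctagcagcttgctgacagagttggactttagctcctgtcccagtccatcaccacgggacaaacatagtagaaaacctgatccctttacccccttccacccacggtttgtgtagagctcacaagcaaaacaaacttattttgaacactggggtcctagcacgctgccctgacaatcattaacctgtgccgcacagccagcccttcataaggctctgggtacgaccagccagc
The window of Igf2 is the farthest upstream of 4 annotated starts, and which start was in use is not given by these data. The search took 3 motifs on both strands: CANNTG, the TATA box TATAAA and the GC box GGGCGG. Hits of different motifs overlapped at 0 places in the members' windows. CANNTG occurred 1 time in the windows of Igf1, Igfbp6 and Igfbp1 and 2 times in that of Igf2 shown here, and in 7 of all 11 windows of the members. The Igf2 window shown is the only 1 of its 4 that holds CANNTG. Of 32841 RefSeq windows of the same length 66.2% hold it, so its presence does not set these genes apart. TATAAA was found in 1 of the 11 windows, that of Igfbp6, and in 12.4% of all windows. GGGCGG was found in 4 of 11 and in 32.7% of all. The 4 were windows of Igf1r, of Igfbp2 and of Igf2, the Igf2 ones not being the one shown.

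Values are the intensities of the deposited table, which are relative: those of each array add up to about 1 without 2 probes, the unnamed 1M and 1O for 28S ribosomal RNA. Each value was read against the lowest intensity of its array, and 2 times that lowest was taken as the limit for a measurable signal. The lowest intensity was 0.0030 on arrays 1 and 2, 0.0018 on array 3, 0.0009 on array 4, 0.0012 on array 5 and 0.0006 on array 6. On arrays 1 and 2, where 1M and 1O were very bright, it made up 66.6% of the summed signal, against 13.3% to 39.9% on the others, so low signals there had little room to show. Results are therefore also given for arrays 3 to 6. Muscle fibre genes checked the tissue. All 8 on the array reached the limit on each of arrays 3 to 6, among them Myh7 (slow myosin heavy chain) at 22.7, 77.0, 28.6 and 59.8 times the lowest, and Mb (myoglobin) and Car3 (carbonic anhydrase of slow fibres). The Tnc probe, a check of the genotype label, was at 4.07 and 4.50 times the lowest on the first pair of arrays and at 1.11, 2.78, 1.75 and 2.17 times on arrays 3 to 6. It was thus above the limit on arrays 1, 2, 4 and 6, and this check does not bear the label out. The probe lies 3.16 grid steps from the bright spot 1M, as described for Igfbp1 below, and it is not given whether it lies in the deleted part. The source of its signal was not tested. Because muscle pieces were measured whole, fewer cells of a type and less RNA per cell cannot be told apart in any value below.

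Igf2 was the 1 member probe of 8 that reached the limit on each of arrays 3 to 6, where 13.6% of all 221 probes did so. None of the 8 reached it on all 6 arrays, against 2.26% of all probes, and 5 reached it on at least 1 array, against 53.8%. The share of members measured was thus near that of the whole array. Over arrays 1 to 6 the number of member probes at the limit was 1, 1, 2, 2, 4 and 4, while the share of all probes was 8.6%, 9.05%, 16.7%, 29.0%, 34.8% and 47.1%. Igf1r, Igfbp2 and Igfbp3 reached it on no array.

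**Figure D1:**
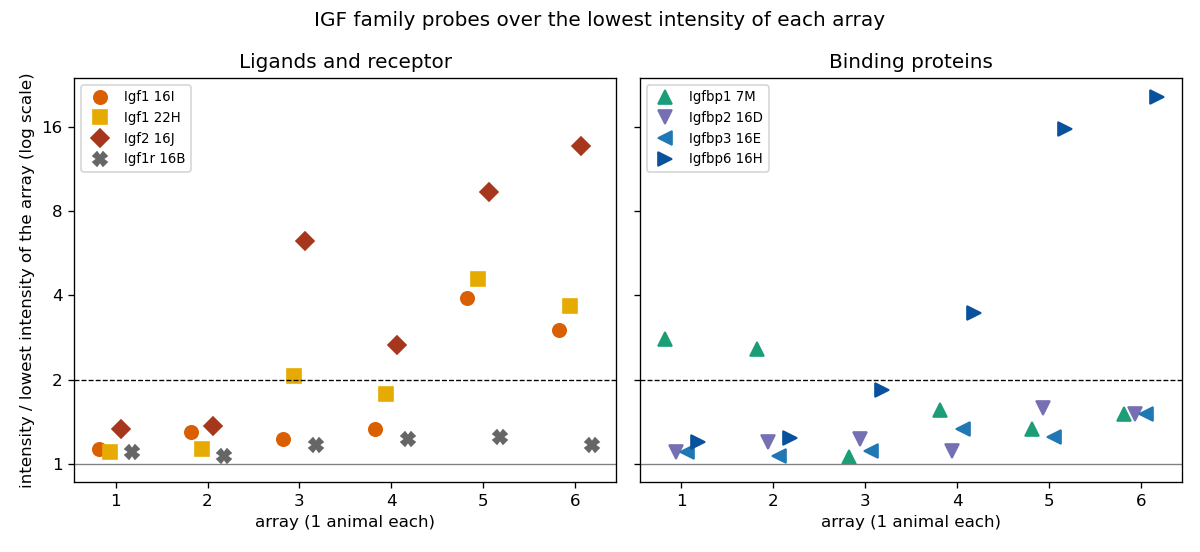
Intensity over the lowest intensity of the same array, on a log scale, for the 8 probes of the IGF family on arrays 1 to 6, each point 1 probe on 1 array. The dashed line is the limit of 2 times the lowest; Igf2 is above it on arrays 3 to 6, Igfbp6 on arrays 4 to 6 and Igfbp1 on arrays 1 and 2.

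The signal of Igf2 spanned a wide range over the arrays, a range that the variance test given last did not call. Its intensities were 0.0040 and 0.0041 on arrays 1 and 2, 0.0113 on array 3, 0.0024 on array 4, 0.0112 on array 5 and 0.0082 on array 6. These were 1.33, 1.37, 6.28, 2.67, 9.33 and 13.7 times the lowest. Arrays 3, 5 and 6 were high and array 4 was low among the arrays with an open range. After subtraction of the lowest intensity the values of arrays 3 to 6 were 0.0095, 0.0015, 0.0100 and 0.0076, so that array 5 stood 6.67 times above array 4; without subtraction array 3, the brightest, was 4.71 times array 4. Muscle fibre signals had no such low on array 4: Myh7 was at its highest there, at 77.0 times the lowest. On the log2 scale, with each array centred on its median, array 4 was the lowest of arrays 3 to 6 for Igf2 under each of 6 scalings tried. Igf1 probe 22H was under the limit on array 4 and at or above it on arrays 3, 5 and 6. Array 4 was the lowest in 14.5% of all 221 probes, and Igf2 was the 1 of 30 probes (3.33%) measured on each of arrays 3 to 6 for which this held. The centred log2 mean of Igf2 was 1.51 ± 1.24 (SD, n = 6).

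Igf1 was detected by both of its probes on arrays 5 and 6. Probe 16I gave 0.0034, 0.0039, 0.0022, 0.0012, 0.0047 and 0.0018 on arrays 1 to 6, which is 1.13, 1.30, 1.22, 1.33, 3.92 and 3.0 times the lowest. Probe 22H gave 0.0033, 0.0034, 0.0037, 0.0016, 0.0055 and 0.0022, or 1.10, 1.13, 2.06, 1.78, 4.58 and 3.67 times it. Both probes were highest over the lowest on array 5 and next highest on array 6, the arrays whose title numbers stand apart; the part of that in these values was not tested. They parted on array 3, where 22H reached the limit and 16I did not. On arrays 5 and 6, where both were measured, the ratio of 22H to 16I was 1.17 and 1.22. Over arrays 3 to 6 probe 16I gave 2.37 ± 1.31 and probe 22H 3.02 ± 1.33 times the lowest (SD, n = 4), an SD that also holds the differences in the lowest intensity. The centred log2 values had an SD of 0.57 for 16I and 0.65 for 22H (n = 6).

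The places of these probes on the membrane bear on this reading. If the number of a probe name is the row and the letter the column, 6 of the 8 member probes lie in row 16, and 16I lies between Igfbp6 (16H) and Igf2 (16J), both brighter on arrays 5 and 6. Probe 22H lies elsewhere and, over the lowest, was likewise highest on array 5 and next highest on array 6. With the lowest subtracted, array 3 came second for 22H (0.0019 against 0.0016 on array 6), while array 6 did for 16I (0.0012). As deposited, array 3 came second for 22H (0.0037) and array 2 for 16I (0.0039). Among the 4 closest neighbours of 22H, Myf5 (a myogenic factor) was at 1.33 and 1.17 times the lowest on arrays 5 and 6. Mef2c (a muscle transcription factor) was at 4.58 and 9.67 times. The part of neighbouring spots in the signal of 16I was not tested.

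The receptor gave next to no signal above the floor. Igf1r intensities were 0.0033, 0.0032, 0.0021, 0.0011, 0.0015 and 0.0007, from 1.07 times the lowest on array 2 to 1.25 times on array 5. The deposited values carry 4 decimals, and on array 6 Igf1r lay 1 unit of the last decimal above the lowest. No order of animals can be read from such values. A level that differs between animals was not detectable here, which does not show that the receptor was absent or equal.

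Igfbp6 was the binding protein with the widest range. It gave 0.0036, 0.0037, 0.0033, 0.0031, 0.0189 and 0.0123 on arrays 1 to 6, which is 1.20, 1.23, 1.83, 3.44, 15.8 and 20.5 times the lowest. Arrays 5 and 6 stood far above the rest, array 4 was above the limit and array 3 just below it. Over arrays 3 to 6 it gave 10.4 ± 9.17 times the lowest (SD, n = 4). The centred log2 SD was 1.58 (n = 6), the largest of the 8 member probes.

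Igfbp2 and Igfbp3 stayed near the floor on every array. Igfbp2 ran from 1.10 to 1.58 times the lowest and Igfbp3, the main carrier in blood, from 1.07 to 1.5 times. Their intensities lay between 1 and 7 units of the last decimal above the lowest for Igfbp2 and between 2 and 3 units for Igfbp3. The centred log2 SDs of 0.17 and 0.10 (n = 6) are those of values at the floor and do not show a steady transcript.

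Igfbp1 had the opposite order of arrays. Its intensity was 0.0084 on array 1 and 0.0077 on array 2. Arrays 3 to 6 had 0.0019, 0.0014, 0.0016 and 0.0009. This is 2.80 and 2.57 times the lowest on the first pair and between 1.06 and 1.56 times on the others, without overlap; 10.4% of all 221 probes were likewise higher over the lowest on both arrays 1 and 2 than on each of arrays 3 to 6. The probe, 7M, lies 6 grid steps from 1M, the spot that was brightest on arrays 1 and 2. Of the 19 probes within 6 steps of 1M, 14, Igfbp1 among them, reached the limit on both arrays 1 and 2, against 3 of 202 probes farther away. The mean of Igfbp1 over these arrays was 2.68 times the lowest, and the 15 other probes at 5 to 7 steps from 1M had a median of 1.87 and a highest value of 2.27. Signal on arrays 1 and 2 thus fell with distance from 1M, and Igfbp1 lay above the other probes at like distance. It shares the column of 1M, though. Down that column the mean over arrays 1 and 2 fell from 18.8 times the lowest at 3M to 4.82 at 5M, 2.68 at 7M, 1.87 at 9M and 1.57 at 11M. The part of the bright spot in the signal of Igfbp1 was not tested.

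**Figure D2:**
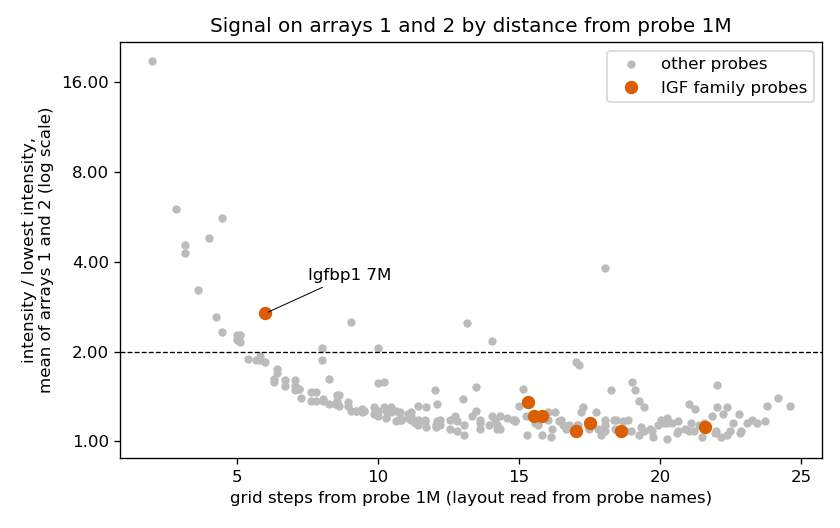
Mean intensity over the lowest on arrays 1 and 2 (log scale) against distance from probe 1M in grid steps, a layout read from probe names, for 221 probes. Igfbp1, at 6 steps and 2.68 times the lowest, stands in the range where values rise toward 1M, while the other 7 IGF family probes lie at 15.3 steps or more and stay under the limit (dashed line).

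Ligands and binding proteins were set against each other by their deviations. On each array the mean deviation of the ligands (Igf1 with its probes averaged, and Igf2) from their own means was compared with that of the 4 binding proteins, on centred log2 values. The ligands deviated by −0.95, −0.87, 0.39, −0.49, 1.02 and 0.90 on arrays 1 to 6. The binding proteins deviated by −0.11, −0.11, −0.29, −0.13, 0.33 and 0.30. The ligands ranged over 1.97 log2 units and the mean of the binding proteins over 0.62. Ligands minus binding proteins gave −0.84, −0.77, 0.68, −0.35, 0.68 and 0.60, so the ligands stood relatively higher on arrays 3, 5 and 6 and relatively lower on arrays 1, 2 and 4. These differences add up to 0 by construction, and levels were not compared. After cyclic loess array 6 turned to −0.02 and the other signs stayed. The mean of the binding proteins joins unlike members, since Igfbp6 had the order of arrays 5 and 6 above the rest and Igfbp1 that of arrays 1 and 2. It also holds Igfbp2 and Igfbp3, which stayed near the floor and ranged over 0.38 and 0.23. Igfbp6 alone ranged over 3.48 and Igfbp1 over 1.51, against 2.75 for Igf2 and 1.42 and 1.66 for Igf1 probes 16I and 22H. The ranges of the means thus do not show that ligands varied more than binding proteins. Without Igfbp1 the binding proteins ranged over 1.07 log2 units in place of 0.62, and the difference over 1.11 in place of 1.53. Without Igfbp6 the difference ranged over 2.49. On arrays 3 to 6 alone the ligands ranged over 1.5, the binding proteins over 0.62 and the difference over 1.04. No correlation is given, because the arrays fall into separate sets, and no p is given for means over chosen members.

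**Figure D3:**
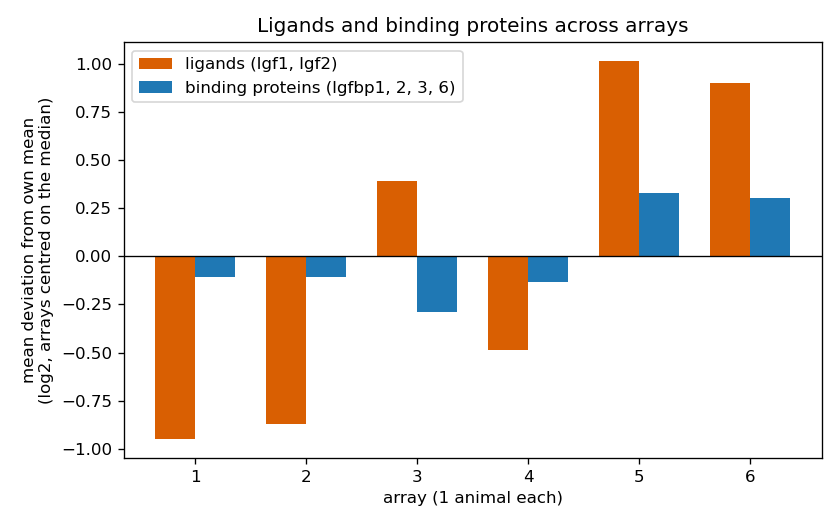
Mean deviation of the ligands (orange) and of the 4 binding proteins (blue) from their own means over 6 arrays, in log2 units of median-centred intensity. The ligands lie at −0.95 and −0.87 on arrays 1 and 2 and at 1.02 and 0.90 on arrays 5 and 6. The mean of the binding proteins, which joins unlike members, stays between −0.29 and 0.33.

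Igf2 and Igfbp6, the pair known for preferential binding, both reached the limit on arrays 4, 5 and 6. A ratio of different probes has no absolute meaning, but its change between arrays does. The ratio of the Igf2 to the Igfbp6 intensity was 0.774, 0.593 and 0.667 there, or 0.682, 0.565 and 0.650 with the lowest intensity subtracted. On array 3 Igf2 was at 6.28 times the lowest while Igfbp6 stayed under the limit, which makes the ratio at least 3.14 when the limit is put in place of Igfbp6. On arrays 1 and 2 both were at the floor and no ratio is read. Igf1 and Igfbp6 both reached the limit on arrays 5 and 6, where the ratio was 0.249 and 0.146 for probe 16I and 0.291 and 0.179 for probe 22H. With 1 array an animal, these differences have no replicate error.

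**Figure D4:**
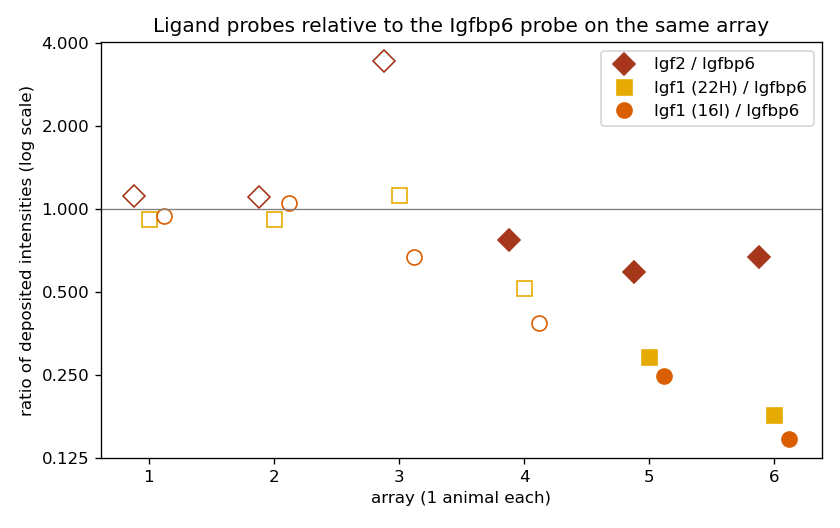
Ratio of the deposited intensity of each ligand probe to that of Igfbp6 on the same array, on a log scale, with 1 point per probe and array. Filled points have both probes at the limit and open points do not; the filled points of Igf2 over Igfbp6 lie between 0.593 and 0.774 on arrays 4 to 6.

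The genes most like each member were sought among 177 other named probes above the lowest on all arrays, by the root mean square (RMS) difference between their centred log2 profiles over 6 arrays after each mean was removed. Nearest to Igf1 probe 16I was Pecam1, an adhesion molecule of endothelial cells, at 0.16 log2 units, where the median over the 177 was 0.64. Lama3, a laminin chain, followed at 0.22. Probe 22H was nearest to Csf2rb2 (a cytokine receptor subunit, 0.24) and Pecam1 (0.26), and the 2 probes of Igf1 lay 0.31 from each other. Igf2 had no close match, with Csf2rb2 at 0.61 and Mdh2 (mitochondrial malate dehydrogenase) at 0.62 and a median of 1.17. Igfbp6 was nearest to Il6st, the signalling subunit common to receptors of interleukin 6 and its relatives, at 0.32, with Fabp4, a fatty acid binding protein of adipocytes and capillaries, at 0.62 and a median of 1.46. Il6st is at 17D and gave 1.13, 1.23, 2.28, 3.33, 9.33 and 18.7 times the lowest, an order of arrays shared with Igfbp6. That order is not particular to them, since the share of all probes at the limit rose in it too, from 8.6% on array 1 to 47.1% on array 6. Igfbp1 was nearest to Lamb1 (a laminin chain, 0.09) and Il6 (interleukin 6, 0.13), whose probes 4J and 6L also reached the limit on arrays 1 and 2. The nearest probes of Igf1r (Csk, a tyrosine kinase, 0.03; Lipe, hormone-sensitive lipase, 0.04), Igfbp2 (Top3a, a topoisomerase, 0.08; Mmp10, a matrix protease, 0.09) and Igfbp3 (Ctsh, a cathepsin, 0.06; Hk1, a hexokinase, 0.06) share only the floor.

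Markers of other cells moved with Igf1 and Igfbp6 in part. Of 5 endothelial genes on the array, Pecam1 gave 1.2, 1.47, 1.5, 1.89, 4.58 and 4.33 times the lowest on arrays 1 to 6. Cdh5, the cadherin of endothelial junctions, gave 1.20, 1.17, 1.44, 1.56, 3.75 and 5.33 times. Over the lowest, both stood highest on arrays 5 and 6, as Igf1 and Igfbp6 did, so the shared order also follows the title numbers. As deposited, Pecam1 and Cdh5 were highest on array 5 (0.0055 and 0.0045). On array 6 they stood at 0.0026 and 0.0032, under their values on arrays 1 and 2. The other endothelial genes, Flt1, Kdr and Tek, ran between 1.11 and 2.0 times the lowest. The summed values of the 5 were 7.10, 6.97, 6.61, 8.11, 13.4 and 14.7 on arrays 1 to 6, and most of the rise on arrays 5 and 6 came from Pecam1 and Cdh5. The adipocyte gene on the array, Fabp4, gave 2.11, 4.33, 7.42 and 8.33 times on arrays 3 to 6. The 3 fibroblast probes, 2 for Fn1 and 1 for Pdgfra, ran between 1.0 and 2.33 times and had summed values between 3.92 and 5.89. The 3 genes of the leukocyte list on the array, Il6, Il1b and Il6ra, stayed between 1.06 and 1.61 times on arrays 3 to 6. These 3 do not show that the signal of leukocytes was flat. The cytokine receptor subunit Csf2rb2, which is not on that list, gave 2.0, 1.33, 3.58 and 4.33 times there. The 4 genes of myogenic regulators on the array are not read here as markers of cells other than fibres. Of these, Myf6 reached the limit on each of arrays 3 to 6, Myod1 on arrays 5 and 6 (2.08 and 2.5 times), Myog on array 6 (2.0 times) and Myf5 on none. The part of any cell type in the signals of Igf1 and Igfbp6 was not tested.

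**Figure D5:**
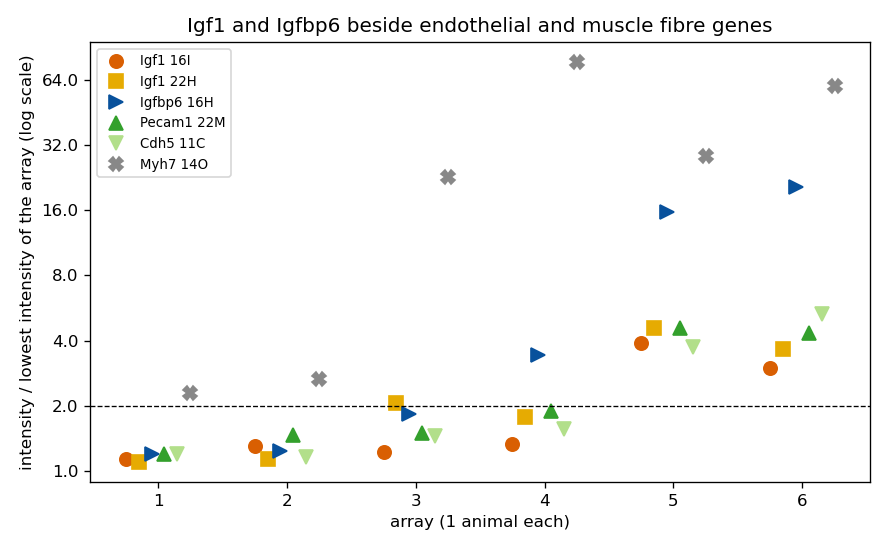
Intensity over the lowest intensity of the array (log scale) for Igf1 (probes 16I and 22H), Igfbp6, the endothelial genes Pecam1 and Cdh5 and the slow myosin gene Myh7 on arrays 1 to 6. The other endothelial genes, Flt1, Kdr and Tek, which ran between 1.11 and 2.0 times the lowest, are not shown. Igf1, Igfbp6, Pecam1 and Cdh5 are highest on arrays 5 and 6, and Myh7 is highest on array 4 at 77.0 times the lowest. Among fibre genes not shown, Myh2 is also highest on array 4 and Mb, Myh1, Des, Ttn, Car3 and Myh4 on array 6.

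Other genes of the pathway came from a list of 44 IGF and insulin pathway genes, of which 6 are on the array. None of the 6 reached the limit on each of arrays 3 to 6, against 13.6% of all probes, and 5 reached it on at least 1 array, against 53.8%. Slc2a4, the insulin-responsive glucose transporter, reached it on arrays 4 to 6, with 1.94, 4.56, 4.25 and 6.17 times the lowest on arrays 3 to 6. Igf2r, which clears IGF2 from the cell surface, gave 1.67, 2.78, 1.83 and 2.67 times on these arrays. The binding proteins Igfbp4 (1.67, 2.0, 1.83 and 2.33) and Igfbp5 (1.39, 2.0, 1.5 and 2.17 times the lowest) lay around the limit as well, too near the floor for an order of arrays to be read. Ghr, the growth hormone receptor, gave 1.28, 1.89, 2.08 and 2.33 times, and Insr, the insulin receptor, stayed at or under 1.5 times. Over all 6 arrays the list's median centred SD was 0.25, and it was 0.29 for 18 other growth factor and receptor genes. Of those 18, the fibroblast growth factor receptor Fgfr2 alone reached the limit on each of arrays 3 to 6, with 3.5, 5.0, 2.08 and 4.0 times the lowest; its low was array 5, where Igf1 was highest over the lowest.

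The spread between arrays was tested for every probe against the trend of spread with signal. In limma's variance test on centred log2 values 0 of 8 member probes passed after Benjamini-Hochberg adjustment over 197 probes, of which 0.508% (1 probe) passed. At an unadjusted p under 0.05 the count was 2 of 8 members and 15 of 197 probes. That is 7.61% of the probes. Those members were Igfbp1 (SD 0.70, limma adjusted p = 0.125) and Igf1 probe 16I (SD 0.57, limma adjusted p = 0.618). Without centring 0 of 8 members passed, against 2.03% of 197 probes. Without array 1 or array 2, Igfbp1 passed (limma adjusted p = 0.041 and 0.039). Over 18 settings its limma adjusted p ran up to 0.941, the value on arrays 3 to 6 alone. In that setting 0 of 8 members passed, and 2 had an unadjusted p under 0.05, against 13 of 200 probes. Those 2 were Igfbp6 and Igf1 probe 16I (limma adjusted p = 0.523 and 0.618). Igf2 (SD 1.24) and Igfbp6 (SD 1.58) had larger SDs, but the trend gave 1.23 and 1.20 for probes of their signal, and their limma adjusted p was 0.913 each. That trend also holds the gap between arrays 1 and 2 and the others. For the muscle fibre gene Myh7 the SD was 2.02 over 6 arrays and 0.74 over arrays 3 to 6. On arrays 3 to 6 it was 0.89 for Igf2 and 1.46 for Igfbp6. Of the 6 other pathway genes 5 could be tested and 0 passed, with limma adjusted p from 0.913 to 0.977, and none had an unadjusted p under 0.05. No repeated array of an animal exists here, so animals and arrays cannot be told apart.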

How the data were processed

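Total RNA from sections of the soleus belly was copied with primers specific to the arrayed genes, taking up a radioactive nucleotide, per the labels' protocols. The deposited table holds 1 linear intensity per probe and array for 223 probes; image analysis, background treatment and scaling are not given in the sources used here. Without 1M and 1O, which were left out, each array sums to about 1. Precision is limited by the number of arrays, 6. Symbols came from the platform annotation, updated by gene identifier (203 of 204 named probes matched, assembly GRCm38.p6). The main scale was log2 intensity centred on the array's median. The variance test used limma 3.58.1 in R 4.3.3 with a robust prior following the mean, on probes above the lowest intensity on every array, at an adjusted p of 0.05. On simulated data it found part of the raised probes and called more unraised ones than that level allows. Other values were computed with Python 3.11.15.

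Named genes were all members, the pathway list on the array, other growth factor genes at the limit on each of arrays 3 to 6, the 2 nearest probes per member, and Tnc, Myh7, Mb and Car3; other names are marker genes, grid neighbours and examples chosen after their values were seen. Members, lists and tests were chosen with earlier results of these data known. Lists for nerve, liver and erythrocyte genes had 0 probes on the array. The alternatives were other limits and floors, no centring, quantile and loess normalization, a pseudocount of 0.0006, subtraction of the lowest, other filters and priors, arrays 3 to 6, and leaving out each array.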

Additional observations from a re-analysis of the deposited data

How the results depend on the processing

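Igf2 alone reached the limit on each of arrays 3 to 6. With a limit of 1.5 times the lowest the count was 3, with 3 times it was 0, and with each array left out in turn it ran from 1 to 2, being 2 without array 3 (Igfbp6 joins) or array 4 (Igf1 22H joins). The number of member probes called in limma's variance test was 0 in 16 of 18 settings (0 to 2 there at an unadjusted p under 0.05); leaving out 1 array gave 0 to 1, the call being Igfbp1 without array 1 or 2. Over all probes the count was 4 without centring and 0 with quantile normalization, the pseudocount, the lowest subtracted, arrays 3 to 6, no filter, a prior with no trend, or a prior that was not robust (added after the data were seen), with 5 to 14 probes at an unadjusted p under 0.05. It ran from 0 to 2 with 1 array left out. The range of ligands minus binding proteins, 1.53 log2 units, became 3.44 with the lowest subtracted and 2.49 without Igfbp6 (added after the data were seen), and 1.45 to 1.53 with 1 array left out; the cause was not tested. Member values on arrays 1 and 2 are limited by the high floor there. No paired analysis was possible because the labels give 1 group.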
